A study of Mus musculus with 33 samples.

Results

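The 38 genes described here encode the stromal extracellular matrix of the embryonic mouse kidney and proteins of its mesenchymal cells. They were taken by name from a table of read counts that holds 35349 gene symbols, and every one of the 38 was found. Kidneys of embryos knockout, heterozygous or wild type for Six2, the gene for a homeodomain transcription factor of the nephron progenitors, were compared. The labels give the genotype only as heterozygous, knockout or wildtype, and the kind of allele, the strain and any pooling of animals are not given in the sources used here. Messenger RNA levels were measured by RNA sequencing of whole kidneys at embryonic day 15.5 (E15.5), from 4 heterozygous and 4 wild-type specimens, and at embryonic day 11.5 (E11.5), from 5 knockout, 5 heterozygous and 6 wild-type specimens. The labels name no treatment, and no knockout group at E15.5 was analysed here. The E15.5 groups held 1 female and 3 males each, and the E11.5 groups held 4 females and 1 male (knockout), 2 females and 3 males (heterozygous) and 4 females and 2 males (wild type).

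Kidney stroma is the connective tissue between the nephrons and the branching ureteric bud, and its cells lay down most of the interstitial matrix. Fibrillar collagens form the load-bearing fibres, small leucine-rich proteoglycans sit on those fibres and limit their width, and fibrillins with elastin form the elastic network that lysyl oxidases cross-link. Platelet-derived growth factor receptors mark the interstitial and perivascular cells, actin and transgelin of smooth muscle mark contractile cells, and the Snail and Twist factors are regulators of the mesenchymal state. By role, 7 of the genes encode fibrillar collagens, 5 other collagens, 4 small leucine-rich proteoglycans, 10 elastic fibre and microfibril proteins, 4 adhesive and matricellular glycoproteins, 5 mesenchymal receptors and smooth muscle proteins with the enkephalin precursor, and 3 transcription factors.

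Total counts ran from 10819256 to 42073021 in the 33 libraries, which were summed to 24 specimens. Levels are given as CPM, counts scaled to an effective library total of 1000000, which is the library total adjusted by its TMM scaling factor. Six2 itself was at 5.69 to 6.51 CPM in heterozygous and 11 to 12.8 CPM in wild-type kidneys at E15.5. At E11.5 it was at 0.291 to 0.666 CPM in knockout, 9.9 to 17 CPM in heterozygous and 19.5 to 33.1 CPM in wild-type kidneys. No group overlapped another of its stage, and the order was that of the labels. Transcripts of renal stroma markers, with Foxd1 among them, were found in every specimen: the 9 markers summed to 1109 to 1233 CPM in heterozygous and 1149 to 1158 CPM in wild-type kidneys at E15.5, and to 1693 to 1880.3, 1666 to 1880.0 and 1427 to 1897 CPM in knockout, heterozygous and wild-type kidneys at E11.5. In 6 libraries, all of E11.5 batch 1, ribosomal RNA genes took more than 5% of the counts, and in the 3 wild-type libraries of that batch they took 20.5% to 26.6%. At E11.5, heterozygous kidney 1 and wild-type kidney 6 carried the most Ttn, the titin gene of striated muscle, at 57.1 and 52.3 CPM, against at most 15.5 CPM in the other E11.5 specimens. For the 38 genes, the values that rest on these libraries are given with and without them where that changed a call. The labels do not say that each specimen is a separate animal, so p-values measure the spread between these specimens. In bulk RNA, fewer cells of a type and less RNA per cell cannot be told apart.

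Together the 38 genes summed to a mean of 1.15% of the effective library total in heterozygous and 1.11% in wild-type kidneys at E15.5. At E11.5 the means were 0.931%, 1.01% and 0.95% in knockout, heterozygous and wild-type kidneys. Per kilobase of the deposited gene length, the most abundant in wild-type kidneys at E15.5 were Col3a1 at 278, Sparc at 158, Col1a2 at 125 and Col1a1 at 114 CPM per kb, followed by Dcn at 66.5 and Acta2 at 65.7. The order differed at E11.5, where in wild-type kidneys Col3a1 at 192 CPM per kb was followed by Fbn2 at 127, Col1a1 at 103, Sparc at 98, Fn1 at 92.5 and Col2a1 at 81.2. Mfap5 was the lowest at both stages, at 2.16 and 0.281 CPM per kb.

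The stage comparison asks which of these genes change as the kidney grows between the first branching of the ureteric bud and the middle of nephron formation. Most of the matrix genes were higher at E15.5. In wild-type kidneys 31 of the 38 genes differed between E15.5 and E11.5 in edgeR's quasi-likelihood test with Benjamini-Hochberg adjustment over all genes at 0.05, where 52.5% of the 17362 genes tested did. Of these, 23 were higher and 8 lower at E15.5, where 26.4% of all genes were higher and 26.0% lower. The counts by role given below are each of few genes and are to be read beside these shares. In heterozygous kidneys 30 differed against 50.5% of all genes, with 22 higher, where 25.9% of all genes were, and 8 lower, where 24.5% were. The median log2 fold change of the 38 genes was 0.74 in heterozygous and 0.58 in wild-type kidneys, and that of all genes tested was -0.02 in both. Each of the 38 passed the filter on low counts in every comparison. At E15.5 every specimen was run in both batches, while at E11.5 the batches held mostly different specimens. Nothing in the sources used here shows that batches of the same number were run together at both stages. Stage therefore cannot be told apart from library set, also in the fits with a single batch given below.

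Among the fibrillar collagens, which form the interstitial fibres, 3 of 7 rose and 3 fell with stage in wild-type kidneys. Col3a1 (chr1:45311538-45349706), the type III chain, was at 2818, 2604, 2855 and 2696 CPM in the wild-type kidneys at E15.5, against a lowest, median and highest value of 1324, 1716 and 2717 CPM at E11.5. It rose by a log2 fold change of 0.53, SE 0.19, adjusted p = 0.02. The ranges overlapped, and with batch 2 alone the log2 fold change was 0.32 and the adjusted p 0.116. Col1a2, the second chain of type I collagen, reached 1589, 1478, 1554 and 1489 CPM at E15.5 and had 488, 652 and 1283 CPM at E11.5, with no overlap (0.85, SE 0.23, adjusted p = 0.0034). Without the libraries above 5% ribosomal RNA it was not called, at a log2 fold change of 0.53 and an adjusted p of 0.0791. In heterozygous kidneys Col3a1 missed the threshold (0.45, SE 0.19, adjusted p = 0.055) and Col1a2 passed it (0.78, SE 0.23, adjusted p = 0.0077). There Col3a1 passed with DESeq2 (adjusted p 0.0373) and with batch 1 alone (0.78, adjusted p 6e-07), but not with batch 2 alone (0.16, adjusted p 0.43). Col5a2, a chain of the type V collagen that nucleates fibres, rose as well (0.74, SE 0.18, adjusted p = 0.002). Col1a1 (chr11:94936224-94953042), the partner chain of Col1a2, was at 770.2, 701, 772 and 783 CPM at E15.5 and at 398, 736 and 786 CPM at E11.5, so the ranges overlapped, and it did not pass the test (0.05, SE 0.15, adjusted p = 0.82). In heterozygous kidneys Col1a1 did not pass either (-0.12, adjusted p 0.56). It passed as lower at E15.5 with batch 1 alone (-0.40, adjusted p 0.0066) and not with batch 2 alone (0.06, adjusted p 0.77).

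The largest fall of any member was in Col2a1 (chr15:97975602-98004695), the main collagen of cartilage. It was at 33.9, 39.5, 38.8 and 42.2 CPM in heterozygous and 58.8, 58.6, 56.8 and 58 CPM in wild-type kidneys at E15.5. At E11.5 it was at 331, 408, 467, 535 and 569.7 CPM in knockout and 449, 339, 374, 464 and 691 CPM in heterozygous kidneys, and its lowest, median and highest values in wild-type kidneys were 354, 519 and 575 CPM. No E15.5 value came near an E11.5 value, and the log2 fold change was -3.57, SE 0.20, adjusted p = 1.8e-12 in heterozygous and -3.06, SE 0.19, adjusted p = 1.4e-11 in wild-type kidneys. Col11a1, which copolymerises with type II collagen, also fell (-1.06, SE 0.10, adjusted p = 1.2e-08), as did Col5a1 (-0.48, SE 0.16, adjusted p = 0.017), whose stages overlapped. Of 11 other cartilage markers, Col9a1, a collagen on type II fibrils, fell by 3.5 on the log2 scale, and in all 1 rose and 4 fell. The 1 that rose was Acan, the cartilage proteoglycan aggrecan, which had 3 to 8 reads a wild-type specimen at E11.5 and passed the low-count filter only through the E15.5 groups, so its rise is no support for a direction of the list. Their sum was 103 to 109.9 CPM at E15.5 and 250.1 to 406 CPM at E11.5, and their part in the fall of Col2a1 was not tested. Col5a1 lost its call without wild-type E11.5 kidney 4, at -0.36 and an adjusted p of 0.0772.

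Among the other collagens 4 of 5 rose, and these included all 3 measured chains of type VI collagen, the beaded-filament collagen around cells. Col6a1 was at 210.1, 178, 219.7 and 202 CPM at E15.5 against 25.4, 31.6 and 56.6 CPM (lowest, median, highest) at E11.5 (2.31, SE 0.20, adjusted p = 1.7e-09). For Col6a2 the values were 143, 126, 140.3 and 134 CPM at E15.5 and 16.5, 21.7 and 38.8 CPM at E11.5 (2.28, SE 0.18, adjusted p = 6.1e-10). The third chain, Col6a3, had 256, 247, 288 and 270.0 CPM at E15.5 and 18.8, 28.3 and 56.9 CPM at E11.5 (2.88, SE 0.24, adjusted p = 1e-09). In none of the 3 genes did the stages overlap. Col14a1, a fibril-associated collagen, rose by more: 176, 159.8, 175 and 167 CPM at E15.5 against 13.2, 15.3 and 20.6 CPM at E11.5, again without overlap (3.3, SE 0.11, adjusted p = 1.7e-16). The related Col12a1 was at 249, 246, 254 and 250.5 CPM at E15.5, inside its E11.5 range of 138, 314 and 379 CPM, and did not pass (-0.23, SE 0.24, adjusted p = 0.45).

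The 4 small leucine-rich proteoglycans, which bind collagen fibrils, all rose. Ogn, osteoglycin (chr13:49608046-49624501), was at 86.5, 77.8, 78.5 and 73.8 CPM in heterozygous and 75.5, 71, 75.5 and 72.7 CPM in wild-type kidneys at E15.5. At E11.5 it was near the floor of detection, at 2.15, 2.03, 1.73, 1.63 and 1.05 CPM in knockout and 1.74, 1.9, 2.13, 1.14 and 0.464 CPM in heterozygous kidneys and 0.519, 1.73 and 3.53 CPM (lowest, median, highest) in wild-type kidneys, on 10 to 71 reads a specimen. Every E15.5 specimen therefore exceeded every E11.5 specimen (5.75, SE 0.31, adjusted p = 8.9e-13 in heterozygous kidneys and 5.42, SE 0.30, adjusted p = 1.1e-12 in wild-type kidneys). With batch 1 alone the heterozygous log2 fold change was 5.11. Dcn, decorin (chr10:97479609-97518143), was at 174, 144, 154 and 136 CPM in heterozygous and 144, 119.6, 152 and 141 CPM in wild-type kidneys at E15.5. Its values at E11.5 were 14.4, 11.4, 19.5, 16.2 and 12.6 CPM in knockout, 9.82, 10.5, 9.75, 15.7 and 9.75 CPM in heterozygous and 6.4, 12.1 and 16 CPM in wild-type kidneys. Decorin too had no overlap between stages (3.62, SE 0.23, adjusted p = 9.7e-12 in wild-type kidneys). Lum, lumican, was at 47.8, 38.6, 55 and 48.6 CPM at E15.5 and 2.64, 5.29 and 7.23 CPM at E11.5 in wild-type kidneys (3.14, SE 0.28, adjusted p = 3.9e-09). None of the Lum values overlapped between stages. Bgn, biglycan, rose least, with 48.8, 46.7, 42.1 and 49 CPM at E15.5 and 10.7, 25.7 and 34.4 CPM at E11.5 (0.87, SE 0.22, adjusted p = 0.0022).

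In the elastic fibre and microfibril set 8 of 10 genes rose and 2 fell. Elastin, Eln (chr5:134702593-134747323), was at 36.1, 32.6, 36.8 and 31.9 CPM in heterozygous and 30.8, 28.4, 34.2 and 29.3 CPM in wild-type kidneys at E15.5. At E11.5 it was at 5.33, 9.4, 6.6, 11.2 and 6.74 CPM in knockout and 14.2, 12.1, 3.91, 7.07 and 6.41 CPM in heterozygous kidneys, with 3.44, 10.6 and 13.8 CPM in wild-type kidneys. The stages did not overlap, and Eln rose in both genotypes (1.92, SE 0.32, adjusted p = 2.4e-05 in heterozygous and 1.59, SE 0.31, adjusted p = 0.00016 in wild-type kidneys). Lox, the lysyl oxidase that cross-links collagen and elastin, was at 113, 105, 113 and 104 CPM at E15.5 and 8.26, 12.5 and 16.6 CPM at E11.5 (3.0, SE 0.17, adjusted p = 1.2e-12). Its relative Loxl1 rose by 0.68 with overlapping stages, and was not called with batch 2 alone (0.36, adjusted p 0.22). Fbln5, a fibulin needed to assemble elastic fibres, rose by 1.36, and Fbln1 and Fbln2 rose by 0.34 and 0.52. Fbln2 overlapped between stages and was not called with batch 2 alone (0.17, adjusted p 0.25), without wild-type E15.5 kidney 3 (adjusted p 0.0534) or without wild-type E11.5 kidney 2 (adjusted p 0.0545). Without the libraries above 5% ribosomal RNA Fbln2 (adjusted p 0.24), Loxl1 (0.136) and Fbn1 (0.171) were not called, nor was Col3a1 (0.169). In heterozygous kidneys Fbn1 was called (0.31, SE 0.11, adjusted p = 0.022), but not without these libraries (0.25, adjusted p 0.0995). Mfap5, a microfibril glycoprotein, was at 8.53, 6.24, 8.73 and 7.61 CPM at E15.5 against 0.795, 0.864 and 1.7 CPM at E11.5 (2.87, SE 0.26, adjusted p = 5.3e-09), where it had 5 to 68 reads a specimen.

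The 2 fibrillins, which form the microfibril backbone, moved apart. Fbn2, the fibrillin best known from fetal tissue, was at 520.1, 531, 579 and 555 CPM at E15.5 against 1123, 1363 and 1457 CPM at E11.5 and fell (-1.35, SE 0.09, adjusted p = 2e-11). Fbn1 was at 312, 303, 334 and 327 CPM at E15.5 and 184, 263 and 308 CPM at E11.5, and rose by a small margin (0.27, SE 0.11, adjusted p = 0.042) with overlapping stages. Its call was lost without any 1 of 8 specimens, with adjusted p-values of 0.0532 to 0.156. These were wild-type E15.5 kidneys 2, 3 and 4, heterozygous E15.5 kidney 4, wild-type E11.5 kidneys 1, 2 and 6, and knockout kidney 5. The heterozygous and knockout specimens enter through what all groups share in the model: the spread, the sex term and the scaling. Per kilobase, Fbn2 was 1.93 to 2.02 times Fbn1 at E15.5 and 5.46 to 7.21 times at E11.5 in wild-type kidneys, a fold of 0.317 between stages. The ratio was chosen after the values were seen and is a description, with no test. Mfap4, a microfibril-associated glycoprotein, also fell (-1.23, SE 0.08, adjusted p = 9.8e-12).

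Ratios between chains of 1 collagen, chosen in the same way, are also descriptions. Col1a2 per kilobase was 1.03 to 1.14 times Col1a1 at E15.5 and 0.377 to 0.966 times at E11.5 (fold 1.80). The E11.5 ratio averaged 0.459 in batch 1 and 0.822 in batch 2, both under the E15.5 values. Col5a1 was 1.23 to 1.33 times Col5a2 at E15.5 and 2.23 to 3.58 times at E11.5 (fold 0.45).

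Of the adhesive glycoproteins 3 of 4 rose and 1 fell. Postn, periostin (chr3:54361109-54391037), was at 253, 245, 265 and 273 CPM in heterozygous and 274, 208, 274 and 259 CPM in wild-type kidneys at E15.5. At E11.5 it was at 77, 82.4, 45.2, 51.6 and 39.2 CPM in knockout, 67.4, 74.3, 37.4, 66.7 and 53.9 CPM in heterozygous and 26.5, 74.8 and 93.1 CPM in wild-type kidneys, with no value as high as at E15.5 (1.94, SE 0.28, adjusted p = 5.2e-06 in wild-type kidneys). Tnc, tenascin C, rose as well, to 128 to 131 CPM at E15.5 against 25.9 to 64.7 CPM at E11.5 (1.62, SE 0.32, adjusted p = 0.00016). Sparc, a collagen-binding matricellular protein, rose by 0.62. Fn1, the fibronectin of the provisional matrix, fell to 609.6 to 682 CPM at E15.5 against 659 to 1578 CPM at E11.5 (-0.79, SE 0.16, adjusted p = 0.00027), with overlapping stages.

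Penk (chr4:4133531-4138819), which encodes the enkephalin precursor, had the largest rise. It was at 109, 111, 101 and 90.0 CPM in heterozygous and 101, 94.9, 99.5 and 103 CPM in wild-type kidneys at E15.5. At E11.5 it was at 0.461, 0.775, 0.74, 1.51 and 1.28 CPM in knockout and 1.05, 0.952, 1.24, 0.423 and 1.11 CPM in heterozygous kidneys and at 0.53, 0.706 and 4.39 CPM in wild-type kidneys, on 6 to 93 reads a specimen. The log2 fold change was 6.74, SE 0.39, adjusted p = 2.5e-12 in heterozygous and 5.98, SE 0.35, adjusted p = 4.1e-12 in wild-type kidneys. Wild-type E11.5 kidney 6 held the highest early value, and without it the wild-type log2 fold change was 6.81. With batch 1 alone it was 7.17. Neither platelet-derived growth factor receptor passed. Pdgfra (chr5:75152292-75198215) was at 411, 404, 435 and 433 CPM at E15.5 against 345, 456 and 524 CPM at E11.5 (-0.11, SE 0.09, adjusted p = 0.35). Pdgfrb (chr18:61045150-61085061) was at 222, 221, 209 and 220.4 CPM at E15.5 and 116, 199.9 and 268 CPM at E11.5 (0.13, SE 0.16, adjusted p = 0.5). For Pdgfra in wild-type kidneys the log2 fold change with batch 1 alone was -0.21 and passed, with an adjusted p of 0.00789. In heterozygous kidneys it was -0.20 (adjusted p 0.0854), and it passed with batch 1 alone (-0.15, adjusted p 0.0462) and with batch 2 alone (-0.28, adjusted p 0.0221), and without the libraries above 5% ribosomal RNA (-0.26, adjusted p 0.0283).

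Acta2, smooth muscle alpha-actin, was at 172, 109, 128 and 80.5 CPM in heterozygous and 121, 104, 126 and 119 CPM in wild-type kidneys at E15.5, and at 12.5, 93.6 and 125 CPM in wild-type kidneys at E11.5. The log2 fold change was 1.43, SE 0.60, adjusted p = 0.052 in heterozygous and 0.54, SE 0.57, adjusted p = 0.45 in wild-type kidneys, neither past the threshold. In heterozygous kidneys it passed with DESeq2 at an adjusted p of 0.0492 and in either batch alone, at 1.71 (adjusted p 0.0175) in batch 1 and 1.15 (adjusted p 0.0379) in batch 2. Tagln, transgelin, was at 37.1, 33.4, 37.1 and 34.9 CPM at E15.5 and 10.1, 44.2 and 65 CPM at E11.5 in wild-type kidneys and did not pass (-0.19, SE 0.44, adjusted p = 0.74).

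Of the 3 transcription factors 2 fell. Twist1, a helix-loop-helix factor of early mesenchyme, was at 9.0, 9.08, 8.21 and 8.77 CPM at E15.5 against 42, 50.3 and 72.6 CPM at E11.5, without overlap (-2.69, SE 0.15, adjusted p = 2.3e-12). Snai1 fell to 6.52, 6.26, 5.71 and 6.77 CPM at E15.5, against 10.7, 14.6 and 22.6 CPM at E11.5 (-1.31, SE 0.17, adjusted p = 1.3e-06). Snai2, the related zinc finger factor, was at 26.6, 30.0, 27 and 29.9 CPM at E15.5 and 16.4, 25.1 and 35 CPM at E11.5 and did not pass (0.06, SE 0.22, adjusted p = 0.85). The batches differed on Snai2 in heterozygous kidneys, where it was lower at E15.5 in batch 1 (-0.65, adjusted p 0.0001) and higher in batch 2 (0.39, adjusted p 0.0311).

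**Figure D1:**
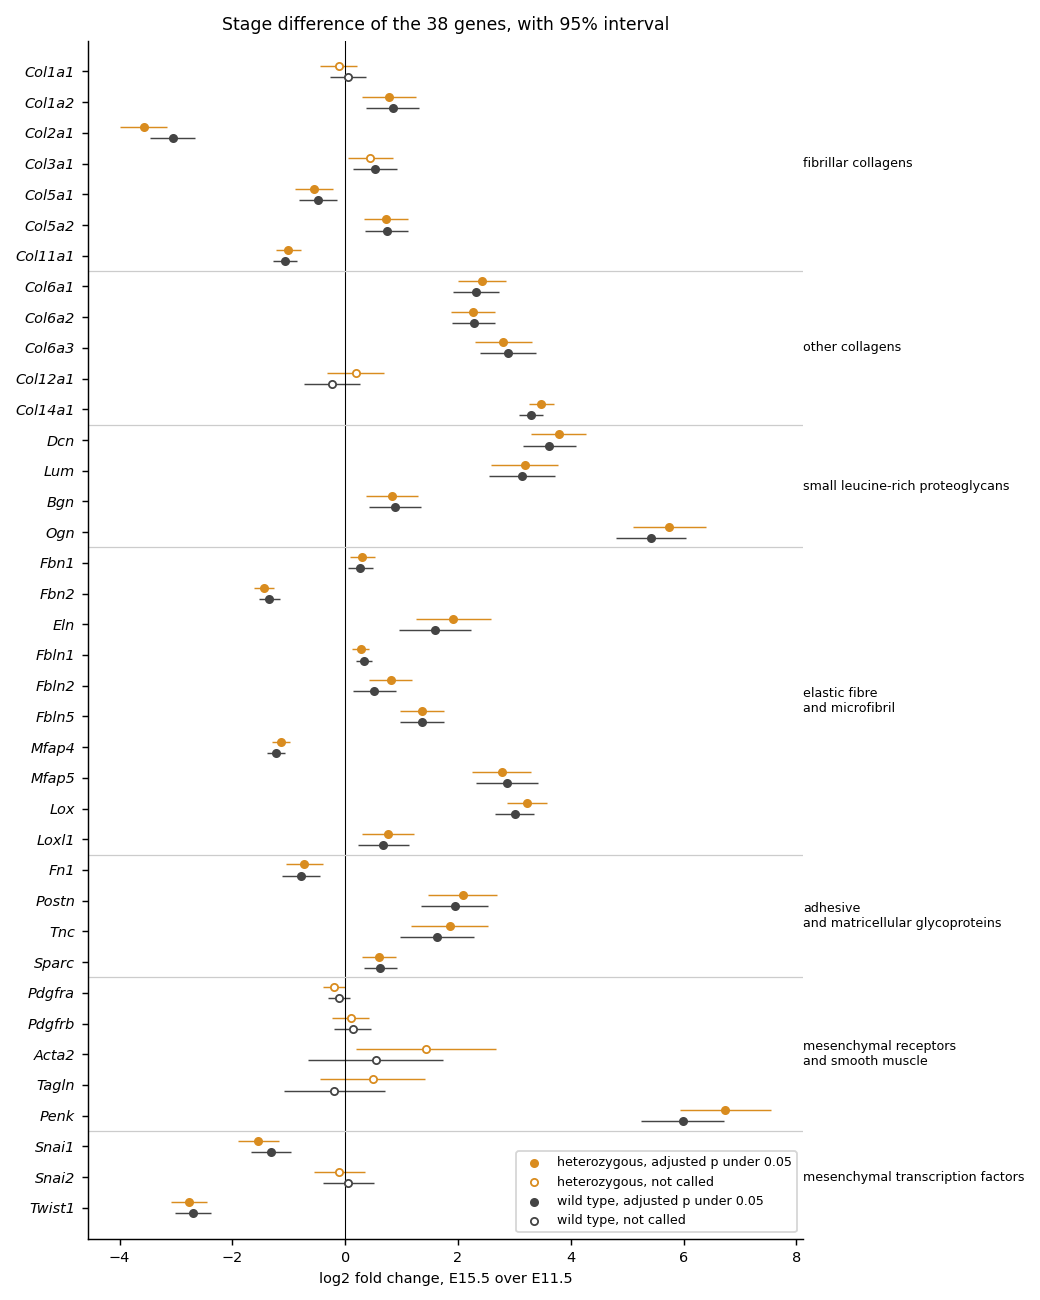
Log2 fold change (x axis) of each of the 38 genes (rows, by role) between E15.5 and E11.5 in heterozygous (upper point of each row) and wild-type kidneys (lower point), with 95% intervals. Filled points passed the adjusted threshold; Penk and Ogn lie farthest right and Col2a1 and Twist1 farthest left in both genotypes.

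**Figure D2:**
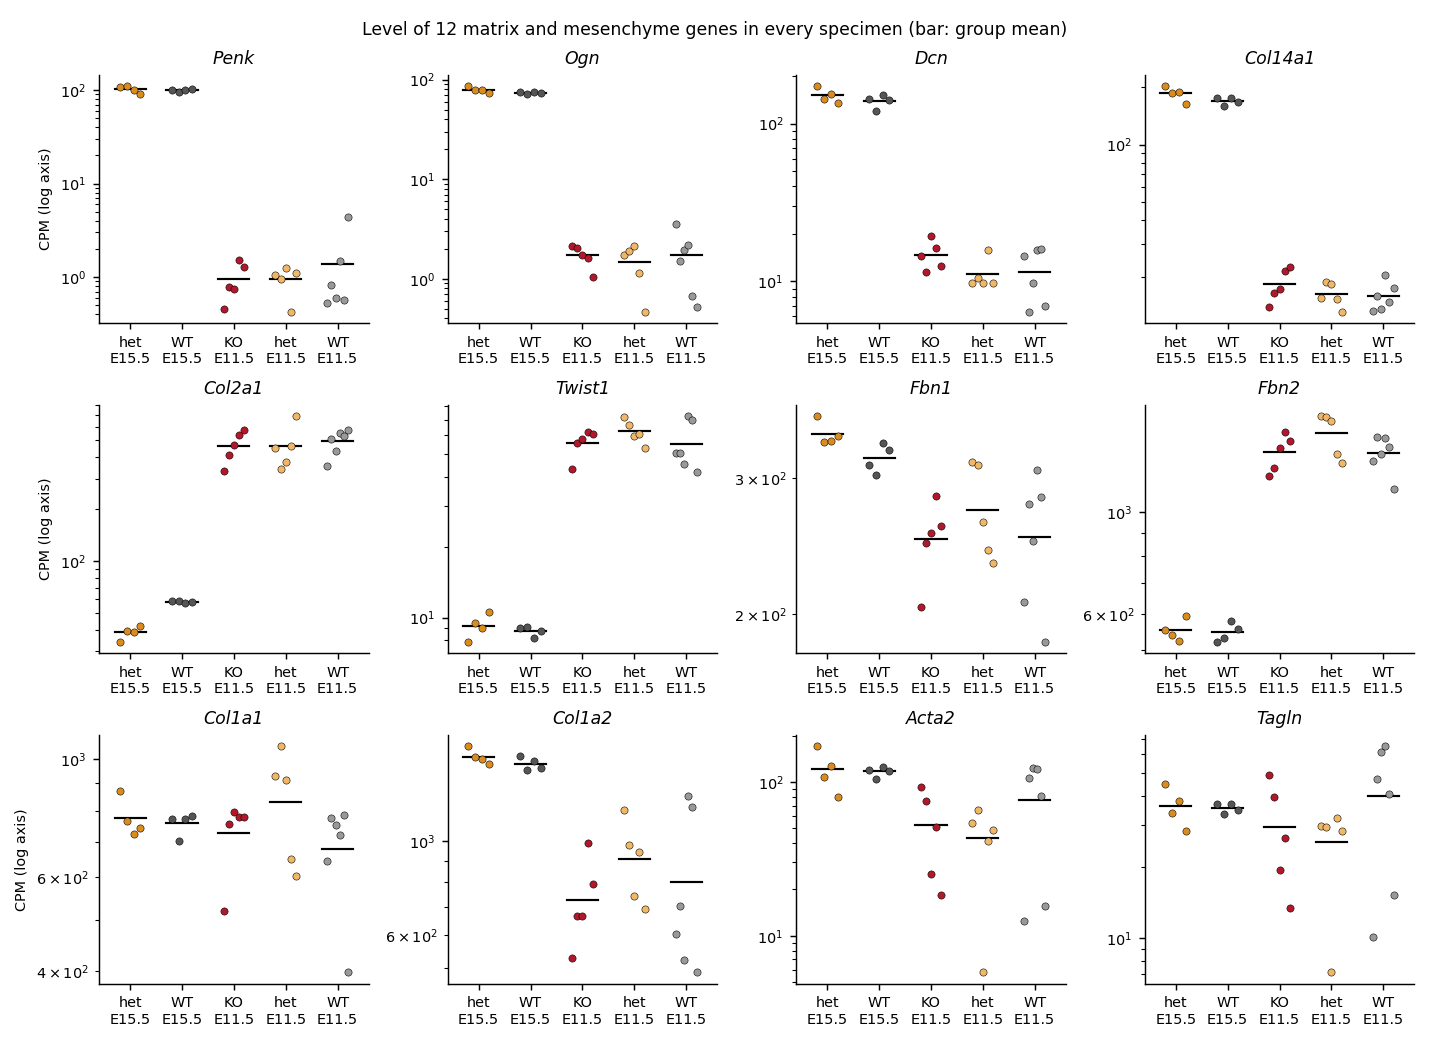
CPM on a log axis for 12 of the genes in every specimen, with the group mean as a bar. For Penk, Ogn, Dcn, Col14a1, Col2a1, Twist1 and Fbn2 the E15.5 and E11.5 points are separate, while for Col1a1 and Tagln they overlap.

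Markers of other cell types moved with stage as well. Their lists are short, and among all genes in wild-type kidneys 26.4% were higher and 26.0% lower at E15.5. In wild-type kidneys the 8 neuron and glia markers summed to 20.2 to 25.3 CPM at E15.5 and 67.1 to 175 CPM at E11.5, and all 8 fell. The 7 erythroid markers summed to 193 to 226 and 2167 to 9199.7 CPM in that order of stages, with 6 lower. The 7 endothelial markers summed to 793 to 837 CPM at E15.5 and 278 to 657 CPM at E11.5, with 4 higher. The 8 ureteric bud markers summed to 629 to 654 CPM at E15.5 and 206 to 379 CPM at E11.5, with 6 higher. The 9 nephron progenitor markers summed to 387 to 404 CPM at E15.5 and 479.6 to 683 CPM at E11.5, with 1 higher and 5 lower. Of the 9 renal stroma markers 2 rose and 4 fell, Foxd1 by a log2 fold change of -1.4, Tbx18 by -2.31 and Meis1 by -1.4. The part of these shifts in the changes of the 38 genes was not tested.

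Other genes of the same pathways moved in both directions with stage in wild-type kidneys. Over 7 lists 31 of 80 tested genes rose and 22 fell, 66.2% in all, beside 26.4% higher and 26.0% lower among all genes. The single lists are short, and several lie near those shares. Of 19 genes for collagen synthesis and processing 10 rose and 4 fell, and the largest changes were in Adamts2 (2.03) and Adamts14 (1.33), which trim procollagen, P4ha3 (-1.19), a prolyl hydroxylase subunit, and Leprel1 (0.98), a collagen prolyl 3-hydroxylase. Of 13 other elastic fibre genes 5 rose and 3 fell, led by Efemp1 (-1.99), a fibulin, Loxl4 (1.72), Ltbp4 (1.07) and Mfap2 (-0.95). Of 7 other small leucine-rich proteoglycans 5 were tested and 4 rose, with Aspn (4.33), asporin, ahead of Fmod (1.12), Podn (1.03) and Ecm2 (1.0). Of 11 proteases and inhibitors 2 rose and 4 fell, among them Adamts5 (1.46), Timp3 (1.35), Mmp11 (-0.84) and Mmp2 (-0.57). In TGF-beta signalling 3 of 12 rose and 4 fell, among them Tgfb2 (-1.54), a ligand, Tgfbr2 (0.87), a receptor, and Ctgf (0.85), a target. Of 10 genes for platelet-derived growth factors and mesenchymal transcription factors 4 rose and 5 fell: Prrx1 (-2.56) and Twist2 (-1.69) fell, and the ligands Pdgfd (1.4) and Pdgfa (1.28) rose. In the smooth muscle list 3 of 10 rose and 2 fell, Myh11 by 1.46, Myl9 by 0.87, Des by -1.71 and Tpm2 by -0.42. The median log2 fold changes were 0.18, -0.14, 1.03, -0.10, -0.04, -0.06 and 0.05 over the 7 lists in this order, beside -0.02 over all genes tested.

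Several of the genes are chromosomal neighbours. Col3a1 and Col5a2 lie 24.6 kb apart on chromosome 1, Dcn and Lum 47.0 kb apart on chromosome 10, and Col6a1 and Col6a2 85.2 kb apart on that chromosome, each pair with no other protein-coding gene between. In all 3 pairs both genes rose with stage. On chromosome 13 the nearest neighbour of Ogn is Omd, osteomodulin, 15.2 kb away, which did not pass (0.92, SE 0.65, adjusted p = 0.24, on 0 to 15 reads a wild-type specimen at E11.5). Aspn, 40.5 kb from Ogn, and Ecm2, 75.3 kb from it, rose.

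Start-site sequence was at hand for 20 of the 38 genes (RefSeq, GRCm38.p6). TATAAA and CCAAT, short promoter motifs that do not overlap each other here, were looked for in the 250 bases before the start on both strands. TATAAA was found in 5 of the 20 (Col3a1, Ogn, Postn, Tnc and Twist1) and in 12.4% of all promoters of that length, and CCAAT was found in 5 of the 20 (Col11a1, Col1a2, Fbln5, Snai1 and Twist1) and in 33.8%. Genes were counted with a match at any listed start, while the shares are over single promoters, so the units are unlike. A match is a description of the letters and not a bound site. The last 130 bases before the start are shown for the 5 genes that changed with stage, have 1 listed start and hold a motif in that window, with the motif in capitals (ATTGG is CCAAT on the other strand).
Col1a2, rose with stage, GRCm38.p6, chr6:4505488-4505617, plus strand: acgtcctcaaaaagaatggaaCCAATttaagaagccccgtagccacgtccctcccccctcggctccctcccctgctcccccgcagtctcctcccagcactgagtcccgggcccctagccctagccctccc
Col3a1, rose with stage, GRCm38.p6, chr1:45311408-45311537, plus strand: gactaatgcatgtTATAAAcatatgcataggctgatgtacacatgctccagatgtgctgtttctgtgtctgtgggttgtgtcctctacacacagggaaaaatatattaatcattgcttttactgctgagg
Col11a1, fell with stage, GRCm38.p6, chr3:114030410-114030539, plus strand: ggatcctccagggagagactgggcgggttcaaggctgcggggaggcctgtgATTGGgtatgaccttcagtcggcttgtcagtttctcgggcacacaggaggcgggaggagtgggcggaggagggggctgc
Snai1, fell with stage, GRCm38.p6, chr2:167538065-167538194, plus strand: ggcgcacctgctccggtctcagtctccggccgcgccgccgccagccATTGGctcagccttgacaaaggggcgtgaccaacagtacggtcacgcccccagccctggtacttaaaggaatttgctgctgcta
Twist1, fell with stage, GRCm38.p6, chr12:33957541-33957670, plus strand: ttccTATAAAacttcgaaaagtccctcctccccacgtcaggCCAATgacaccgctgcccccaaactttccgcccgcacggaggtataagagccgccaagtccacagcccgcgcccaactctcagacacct
The Twist1 window holds both motifs. Counted from the start, the first printed base of CCAAT lies 109 bases upstream in Col1a2 and 89 in Twist1. That of ATTGG lies 79 bases upstream in Col11a1 and 84 in Snai1, and that of TATAAA 117 in Col3a1 and 126 in Twist1. Genes that rose and genes that fell with stage are on the list of each motif.

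The knockout comparison at E11.5 asks how these genes differ where Six2 is knocked out. Six2 itself still had 3 to 13 reads in each knockout specimen. None of the 38 genes passed the adjusted threshold in edgeR's quasi-likelihood test of knockout against wild-type kidneys, a count of 0, where 7.09% of the 16141 genes tested did. At an unadjusted p under 0.05 there were 4, where 20.2% of all genes were under it, and DESeq2 called 1, where it called 8.9% of all genes. The median log2 fold change was -0.03, and the values ran from -0.82 to 0.36. For 24 of the 38 genes the 95% interval of the difference stayed within 1.5-fold either way.

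Pdgfra, the receptor that marks much of the stroma, was the nearest to a call. It was at 558, 561, 599.8, 571 and 521 CPM in knockout and 499, 459, 448, 546 and 519 CPM in heterozygous kidneys, and its lowest, median and highest values were 345, 456 and 524 CPM in wild-type kidneys. The lowest knockout value lay just under the highest wild-type value, so the groups overlapped. Its log2 fold change was 0.31, SE 0.09, adjusted p = 0.058, and DESeq2 gave an adjusted p of 0.0198. Within batch 1 the difference was 0.29 and within batch 2 it was 0.33, with adjusted p-values of 0.189 and 0.393. The other 3 genes under an unadjusted p of 0.05 were Col14a1 (0.27, SE 0.10, adjusted p = 0.13), Mfap4 (-0.17, SE 0.06, adjusted p = 0.13) and Tnc (-0.82, SE 0.37, adjusted p = 0.22). Tnc was at 34.1, 49.9, 19.2, 24.8 and 9.42 CPM in knockout kidneys and at 25.9, 45.3 and 64.7 CPM (lowest, median, highest) in wild-type kidneys, with overlap.

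The narrowest intervals were those of Fbln1 (-0.08, 95% interval -0.20 to 0.05), Mfap4 (-0.30 to -0.04) and Fbn2 (0.04, -0.11 to 0.19). The abundant collagens were less closely bounded. Col1a1 was at 519, 754, 795, 777 and 779 CPM in knockout and 929, 1056, 915, 650.0 and 603 CPM in heterozygous kidneys at E11.5, and at 398, 736 and 786 CPM (lowest, median, highest) in wild-type kidneys. Its knockout difference was 0.13, with a 95% interval of -0.18 to 0.44. Col3a1 was at 1520.4, 1774, 1720.3, 2323 and 1749 CPM in knockout and 2198, 1821, 1469.8, 2564 and 2366 CPM in heterozygous kidneys, with a knockout difference of 0.00 and an interval of -0.32 to 0.32. For Pdgfrb, at 184, 166, 198, 214 and 173 CPM in knockout and 224, 203, 162, 223 and 171 CPM in heterozygous kidneys, it was -0.01 with an interval of -0.35 to 0.33. Acta2 had the widest interval, at -0.57 with -1.94 to 0.80, ahead of Penk at -0.42 with -1.47 to 0.62 and Tagln at -0.47 with -1.51 to 0.56. Each of these 3 intervals includes a fall of 2-fold and none includes a rise of 2-fold.

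Heterozygous kidneys at E11.5 likewise gave 0 called genes of 38 against wild type with edgeR (0.0681% of all genes), 0 at an unadjusted p under 0.05 (8.25%) and 0 with DESeq2 (0.266%), with a median of 0.01 and 27 of 38 intervals within 1.5-fold. Between knockout and heterozygous kidneys edgeR called 0 (3.69% of all genes), 3 were under an unadjusted p of 0.05 (18.5%), namely Col14a1 (0.33), Fbln1 (-0.14) and Mfap5 (-0.87), and DESeq2 called 0 (6.29%). The knockout and the heterozygous comparison with wild type share the wild-type kidneys.

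Over the 7 lists of other pathway genes edgeR called 6 of 80 tested genes in knockout against wild-type kidneys, or 7.5%, close to the 7.09% of all genes. Of the 13 other elastic fibre genes Ltbp1, which tethers latent TGF-beta, rose (0.62, SE 0.11, adjusted p = 0.0021) and Loxl2 fell (-0.31, SE 0.08, adjusted p = 0.033), beside a list median of -0.03. Adamts1 was the 1 of 11 proteases and inhibitors to rise (0.28, SE 0.07, adjusted p = 0.016), and Zeb2 the 1 of 10 growth factor and transcription factor genes (0.40, SE 0.09, adjusted p = 0.015), with list medians of 0.14 and 0.03. In the smooth muscle list 2 of 10 fell, with a median of -0.30. These were Tpm2, beta-tropomyosin, at 47.9, 53.2, 40.5, 60.0 and 51.8 CPM in knockout against 103, 147 and 194 CPM (lowest, median, highest) in wild-type kidneys (-1.55, SE 0.10, adjusted p = 1.2e-07), and Des, desmin, at 106, 95.1, 89.9, 95.6 and 110.0 CPM against 147, 166 and 224 CPM (-0.83, SE 0.10, adjusted p = 3.4e-05). Neither overlapped, and both also fell against heterozygous kidneys (Tpm2 -1.3, Des -0.74). edgeR called 0 of 19 collagen synthesis genes (0 at an unadjusted p under 0.05, 0 with DESeq2, median 0.05), 0 of 12 TGF-beta genes (2 and 0, median -0.03) and 0 of 5 tested small leucine-rich proteoglycans (0 and 0, median 0.08). The median of all genes tested was 0.00.

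Markers of other cells moved in the same contrast, in which 494 of all 16141 genes tested were higher and 650 lower. Of 9 nephron progenitor markers 6 fell in knockout kidneys, with a sum of 275 to 382 CPM in knockout and 479.6 to 683 CPM in wild-type kidneys. Of 6 macrophage markers 5 rose, summing to 81.3 to 172 and 50.1 to 102 CPM, and of 8 ureteric bud markers 3 rose, summing to 342 to 496 and 206 to 379 CPM in the same order. The 9 renal stroma markers summed to 1693 to 1880.3 CPM in knockout and 1427 to 1897 CPM in wild-type kidneys, with Tbx18 higher (0.57) and Ntn1 lower (-0.95). What part these had in the values of the 38 genes was not tested.

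**Figure D3:**
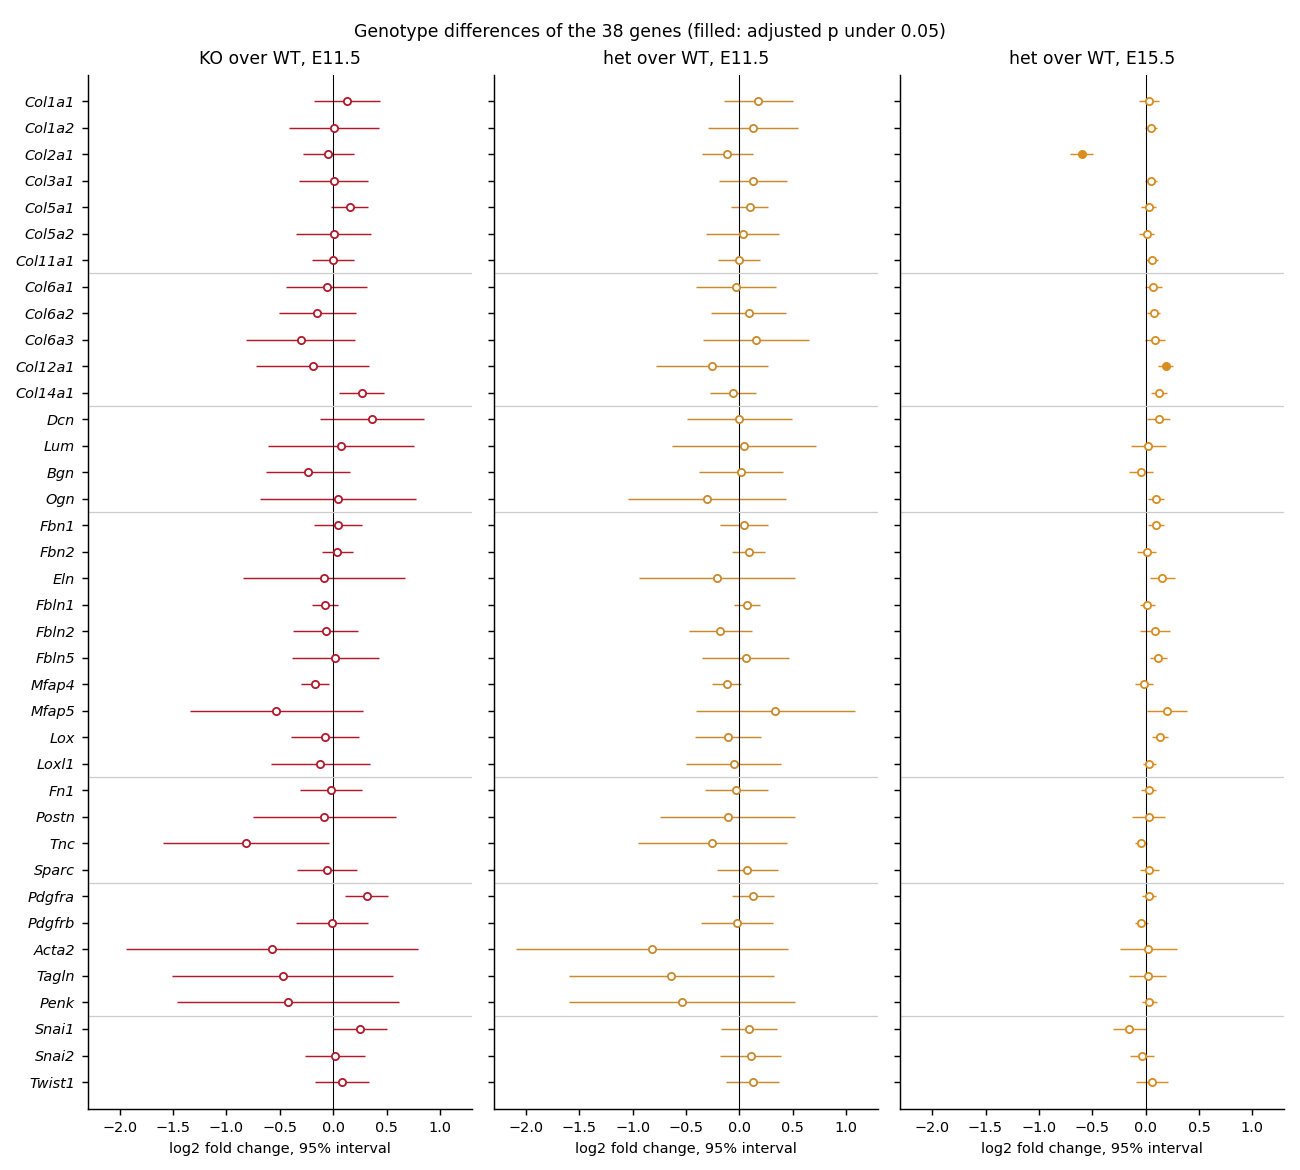
Log2 fold change with 95% interval of each of the 38 genes (rows) for knockout over wild-type and heterozygous over wild-type kidneys at E11.5 and heterozygous over wild-type kidneys at E15.5 (panels from left to right). Col2a1 and Col12a1 at E15.5 are the filled points that passed, and the intervals are narrowest in the E15.5 panel.

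At E15.5 kidneys heterozygous for Six2 were compared with wild-type kidneys. Here 2 of the 38 genes passed in edgeR, where 0.57% of the 18244 genes tested did. Of these, 1 was higher in heterozygous kidneys, where 0.208% of all genes were, and 1 lower, where 0.362% were. Col2a1 was at 33.9, 39.5, 38.8 and 42.2 CPM in heterozygous and 58.8, 58.6, 56.8 and 58 CPM in wild-type kidneys, lower in 4 of 4 without overlap, and fell (-0.60, SE 0.05, adjusted p = 8.8e-05). The fall was -0.61 in the batch 1 runs alone and -0.58 in the batch 2 runs alone, with adjusted p-values of 2.3e-05 and 0.0016, and it passed in all 16 alternative analyses of this comparison. Col12a1, a fibril-associated collagen, was at 299, 275, 272 and 296 CPM in heterozygous and 249, 246, 254 and 250.5 CPM in wild-type kidneys, higher in 4 of 4 (0.19, SE 0.03, adjusted p = 0.028). Its call was lost without any 1 of 6 of the 8 specimens (heterozygous kidneys 1 and 4 and all 4 wild-type kidneys), at adjusted p-values of 0.053 to 0.138, with the batch 1 runs alone (0.0741) and with the replicate number as a block (0.0586).

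Col2a1 is a cartilage collagen, so cartilage genes were looked at beside it. Of 11 other cartilage markers edgeR called 0 between heterozygous and wild-type kidneys, with 1 at an unadjusted p under 0.05 and 0 with DESeq2. They summed to 99.9 to 119.9 CPM in heterozygous and 103 to 109.9 CPM in wild-type kidneys. Col9a1, which sits on type II fibrils, was at 23.8, 16.6, 18.9 and 14.1 CPM in heterozygous and 22, 17.6, 23.2 and 18.9 CPM in wild-type kidneys, and Acan was at 1.45 to 2.05 and 1.44 to 1.86 CPM in the same order. Neither separated the genotypes. Nephron progenitor markers did move: Cited1 was at 13.3, 14.3, 13 and 13.5 CPM in heterozygous and 41.8, 41.1, 39.7 and 39.5 CPM in wild-type kidneys (-1.59, SE 0.04, adjusted p = 2e-09), and Crym fell by 0.74 on the log2 scale. In all 3 of 9 such markers fell and 1 rose, and their sum was 337 to 370.4 CPM in heterozygous and 387 to 404 CPM in wild-type kidneys. The 8 ureteric bud markers summed to 672 to 716 CPM in heterozygous and 629 to 654 CPM in wild-type kidneys, without overlap; edgeR called 0 of them, 4 were at an unadjusted p under 0.05 and DESeq2 called 1, Calb1. The part of these markers in the fall of Col2a1 was not tested.

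**Figure D4:**
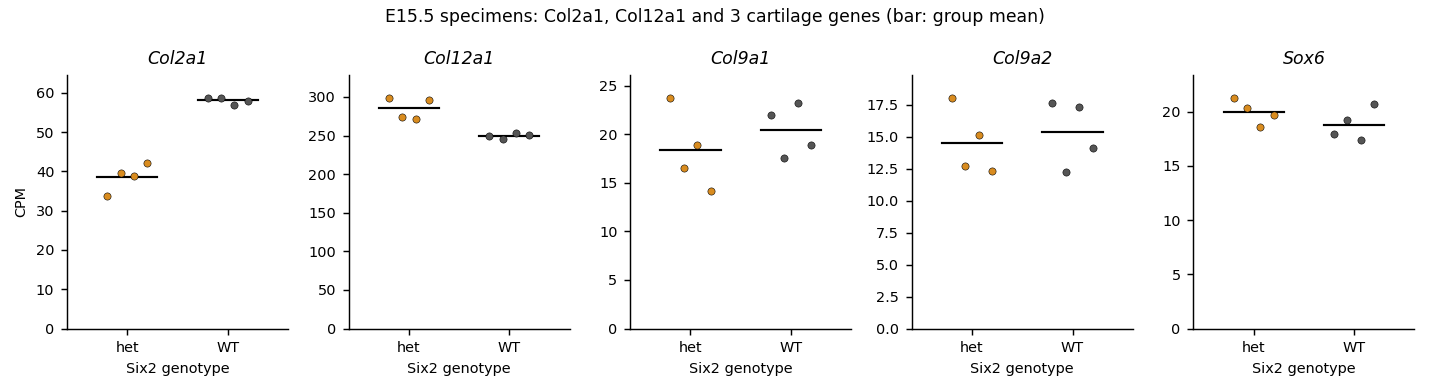
CPM (y axis from 0) of Col2a1, Col12a1 and the cartilage genes Col9a1, Col9a2 and Sox6 in each heterozygous (left) and wild-type (right) specimen at E15.5, with the group mean as a bar. Col2a1 and Col12a1 separate the genotypes, and the ranges of the other 3 overlap.

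At an unadjusted p under 0.05 there were 12 of the 38 genes, where 8.17% of all genes were, and DESeq2 called 3, where it called 0.85% of all genes, with Col14a1 as the third (0.13, SE 0.03, adjusted p = 0.21 with edgeR). Of the 12, 11 were higher in heterozygous kidneys: Col12a1, Mfap5, Eln, Lox, Col14a1, Dcn, Fbln5, Ogn, Fbn1, Col6a2 and Col11a1, by 0.06 to 0.20 on the log2 scale. All but Col12a1 missed the adjusted threshold. Heterozygous kidney 1 held the highest value of its group for 22 of the 38 genes, and wild-type kidney 2 the lowest of its group for 23. The median of the 38 was 0.03, beside 0.00 for all genes. For 37 of the 38, all but Col2a1, the interval of the difference stayed within 1.5-fold either way. Among the other pathway genes P4ha1, a prolyl hydroxylase subunit, rose (0.12, SE 0.02, adjusted p = 0.042), as did Efemp1 (0.29, SE 0.04, adjusted p = 0.0047). They were the 1 called gene of 19 for collagen synthesis and of 13 other elastic fibre genes. In the other lists edgeR called 0 of 6 tested small leucine-rich proteoglycans (1 at an unadjusted p under 0.05, 0 with DESeq2), 0 of 11 proteases (2 and 0), 0 of 12 TGF-beta genes (1 and 0), 0 of 10 growth factor and transcription factor genes (2 and 0) and 0 of 10 smooth muscle genes (1 and 0).

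The heterozygous effect was then compared between stages. None of the 38 genes passed, a count of 0 in edgeR, where 0.00576% of all genes did. Only Col2a1 was under an unadjusted p of 0.05, where 1.81% of all genes were, and DESeq2 called 0, where it called 0.0173%. The difference for Col2a1 was -0.51 with a 95% interval of -1.02 to -0.01 and an adjusted p of 1.0, and at E11.5 the heterozygous difference was -0.11 with an interval of -0.35 to 0.12. A difference between the stages in the Col2a1 effect is therefore not shown.

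Specimens at E11.5 differed more from each other than those at E15.5. The standard deviation of log2 CPM within groups was larger at E11.5 for 38 of 38 genes, with a median of 0.37 at E11.5 and 0.09 at E15.5, and within batches the E11.5 median was 0.335. Library depth was also lower at E11.5. Fbn2 and Mfap4 varied little at E11.5, at 0.146 and 0.11, and Acta2 the most, at 1.33. Acta2 was at 93.3, 75.6, 25.3, 51 and 18.5 CPM in knockout, 54.5, 65.8, 5.77, 41.3 and 48.6 CPM in heterozygous and 12.5, 106, 125, 121, 80.9 and 15.6 CPM in wild-type kidneys, a 21.6-fold range. The lowest values were found in every genotype: knockout kidney 5, heterozygous kidney 3 and wild-type kidneys 1 and 6. In this order they held the lowest value of their group for 15, 14, 17 and 20 of the 38 genes. Knockout kidney 1 did so for 17 and heterozygous kidney 5 for 18, with Acta2 at 93.3 and 48.6 CPM.

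Tagln was low in the same specimens, at 49.3, 39.7, 19.4, 26.6 and 13.4 CPM in knockout, 29.9, 29.6, 7.14, 32.2 and 28.5 CPM in heterozygous and 10.1, 47.4, 61.2, 65, 40.9 and 15.2 CPM in wild-type kidneys. Over the 16 E11.5 specimens log2 CPM of the 2 genes had a Pearson r of 0.983 and a Spearman rho of 0.956 (permutation p = 1e-05 for both, the smallest the 100000 permutations can give, 2.2e-05 and 2.7e-05 adjusted over 11 relations). Without heterozygous kidney 3 and wild-type kidney 1, the farthest from the median, r was 0.969, and it was 0.991 in the 8 batch 1 and 0.969 in the 7 batch 2 specimens. Tagln and the 10 genes of the smooth muscle list made up the 11 relations. Of these, 6 passed and had r above 0.7: beside Tagln they were Myh11, the smooth muscle myosin heavy chain (0.947), Actg2, gamma-actin of visceral muscle (0.937), Cnn1, calponin (0.925), Myl9, a myosin light chain (0.919), and Lmod1, leiomodin (0.822). Des, Tpm2, Smtn, Cald1 and Myocd did not pass, with r of 0.03, 0.033, 0.134, 0.301 and 0.408. These correlations share the libraries and their scaling. The specimens were pooled over genotypes without centring by group, and the permutations ran freely over genotype and batch. Tpm2 and Des were lower in knockout kidneys, so their r cannot show how they vary with Acta2 within a genotype. At E15.5 Acta2 varied 2.13-fold, at 80.5 to 172 CPM in heterozygous and 104 to 126 CPM in wild-type kidneys.

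**Figure D5:**
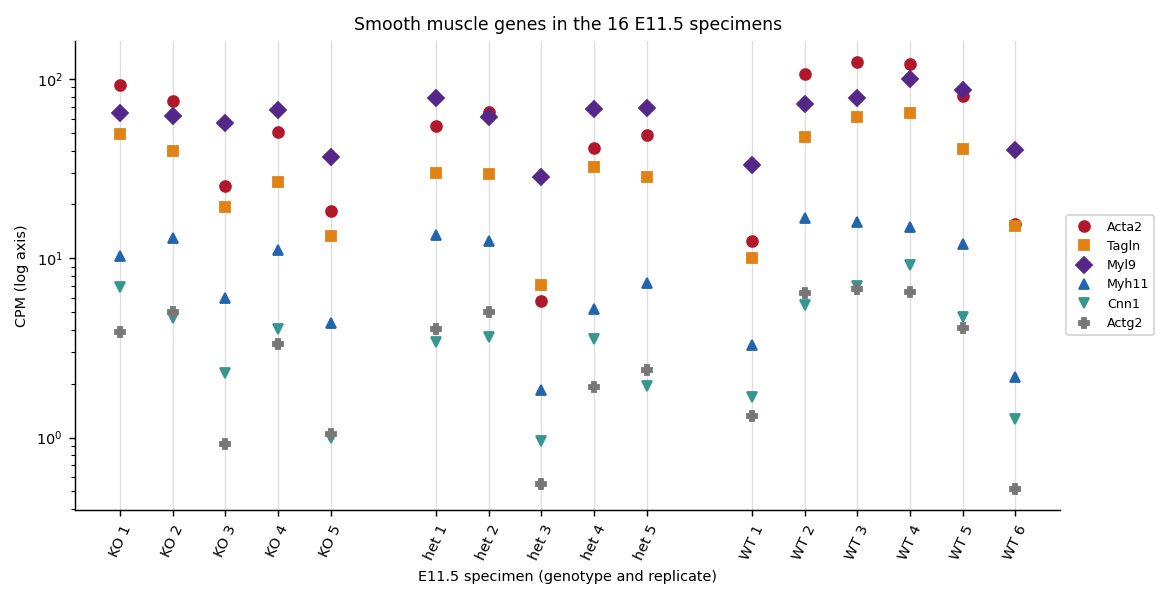
CPM on a log axis of 6 smooth muscle genes in each of the 16 E11.5 specimens, by genotype (knockout, heterozygous, wild type from left to right). All 6 are low in heterozygous kidney 3 and wild-type kidneys 1 and 6, and wild-type kidneys 2 to 4 have the highest Acta2.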

How the data were processed

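The authors deposited raw read counts per gene, for which the submitters' processing notes name the aligner STAR (2.4.0h1), the counter featureCounts (1.4.6) and the build mm10; the annotation and strand setting are not given in the sources used here, so reads of overlapping or antisense genes could not be separated. Per the labels, RNA came from snap-frozen whole kidneys. Counts of the runs of 1 specimen were summed (33 libraries, 24 specimens). CPM are counts scaled to an effective total of 1000000. The effective total is the counts of genes past the low-count filter times the TMM factor, computed over all 24 specimens. The share of counts on 360 ribosomal RNA loci was 0.223% to 26.6%, and these stayed in the totals. Gene positions are from GENCODE vM21 on GRCm38.

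Genes were tested with edgeR 4.0.16 (R 4.3.3; filterByExpr with a minimum count of 10 and total of 15, TMM scaling, quasi-likelihood F test, Benjamini-Hochberg at 0.05, no fold threshold), and with DESeq2 1.42.0 as an alternative. Models held group, sex and batch over 16 specimens at E11.5, group and sex over 8 at E15.5, and group and sex over all 24 for stage and for the difference of effects. The batch number in the labels is the replicate number of the E11.5 titles: same-batch specimens of different groups deviated together (median correlation 0.328, range -0.02 to 0.621, 37 pairs, against -0.336 for different batches), so it is the block of that model. Intervals are 95%. Correlations used log2(CPM + 0.5) and 100000 permutations in scipy 1.17.1.

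The 38 genes and all lists were chosen with earlier results of these data known. Values per specimen are given for Col1a1, Col3a1, Dcn, Postn, Eln, Acta2, Tagln, Pdgfra, Pdgfrb, Penk, Col2a1, for genes called between genotypes, for the 12 called genes of largest stage change and for those not called; other genes with values were chosen after their values were seen. On simulated counts 100 of 100 genes changed by a log2 fold of 1 were recovered in knockout against wild type (16060 genes, 11 false calls), heterozygous against wild type at E15.5 (18272 genes, 14) and the wild-type stage comparison (16894 genes, 9). The simulation gave every gene the same median spread, added no batch or sex effect and changed only well-counted genes. It therefore checks the code, and cannot show that such a change would be found in variable or low-count genes such as Acta2 or Penk. Alternatives were other scaling, no low-count filter, removal of ribosomal RNA genes or of libraries rich in them, single batches, other blocks, sex left out and each specimen left out.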

Additional observations from a re-analysis of the deposited data

Results flagged for a closer look

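In 14 of 190 tests (38 genes in 5 groups) 1 specimen stood apart from the others of its group by Dixon's criterion; chance gives about 1 in 20. Col1a1 was low in wild-type E15.5 kidney 2 (701 CPM, others 770.2 to 783), knockout kidney 1 (519 CPM, others 754 to 795) and wild-type E11.5 kidney 6 (398 CPM, others 644 to 786). At E15.5, heterozygous kidney 4 was high for Mfap4 (45.7 CPM, others 38.6 to 39.5) and low for Tnc (117 CPM, others 127.6 to 128.3). Wild-type kidney 3 of that stage was high for Tnc (130.5 CPM, others 127.9 to 128.1) and low for Pdgfrb (209 CPM, others 220.4 to 222), and wild-type kidney 1 was high for Loxl1 (50.8 CPM, others 48.7 to 48.9). At E11.5, heterozygous kidney 4 was high for Dcn (15.7 CPM, others 9.75 to 10.5) and low for Mfap4 (81.7 CPM, others 90.3 to 92.8), and heterozygous kidney 3 was low for Tagln (7.14 CPM, others 28.5 to 32.2). Knockout kidney 1 was low for Fbln5 (11.3 CPM, others 23.2 to 27.3). Wild-type kidney 5 was high for Mfap5 (1.7 CPM, others 0.795 to 1.03) and wild-type kidney 6 for Penk (4.39 CPM, others 0.530 to 1.48).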

How the results depend on the processing

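Of 3770 recomputed values of 130 gene results, 3708 kept their side of the threshold, 32 lost their call and 30 gained one, and 0 called genes changed sign. Outside these, Snai2, not called in heterozygous kidneys between stages, passed in opposite directions in the 2 batches. In knockout against wild-type kidneys 1 gene passed under DESeq2, with no low-count filter and with sex left out, each time Pdgfra, and 0 to 1 when 1 specimen was left out: Pdgfra without wild-type kidney 3 or 4 (adjusted p 0.0271 and 0.0206) and Mfap4 without knockout kidney 4 (-0.23, adjusted p 0.0302). Between knockout and heterozygous kidneys 2 passed when blocks were formed by title prefix, not batch, (Bgn -1.21, Snai2 -1.02). In heterozygous against wild-type kidneys at E15.5 the count was 1 with the batch 1 runs alone and 1 with the replicate number as a block, and 1 to 2 when 1 specimen was left out; without wild-type kidney 2 or heterozygous kidney 4, Fbln5 passed and Col12a1 did not. The cause of these moves was not tested. The E15.5 numbers did not pair the specimens (same-number correlations of -0.155 to 0.303 over 4 pairs, others -0.332 to 0.413). With no replicate block at E11.5, 0 of the 38 genes passed in each of the 3 genotype comparisons, as with it, while the count over all genes for knockout against wild type was 439 in place of 1144. The stage counts were 26 to 32 in wild-type and 29 to 35 in heterozygous kidneys over all alternatives, and the heterozygous median was 0.52 with batch 2 alone. At E11.5 Penk, Ogn and Mfap5 rested on few reads, which limits their genotype comparisons; batch 1 of E11.5 had the shallowest library, and E15.5 was sequenced deeper.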
